A study of Mus musculus with 12 samples.

Results

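The 8 B cell genes described here are Cd79a, Cd79b, Ms4a1, Cd22, Cr2, Pax5, Blk and Fcer2a. They were taken by symbol from the 22923 distinct gene symbols listed for each library, and none of the 8 was listed more than once. Their levels were read in the proximal hind limb skeletal muscle of 12 male mice of the FVB background (FVB/N in the study's methods), all 22 weeks of age. WT mice, titled Flox and bred as littermates of the knockouts from heterozygous parents, were kept on normal chow (3 mice, called chow-fed) or on high fat diet (3 mice, called fat-fed). KO mice, which lack αB-crystallin (Cryab) and HspB2 (Hspb2) in every cell, were likewise kept on normal chow (3 mice) or on high fat diet (3 mice). The high fat chow was started when the mice were young and continued until the muscle was taken. Each library came from a mouse described as an independent sample, so p-values measure the spread between these mice.

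B cells carry an immunoglobulin on their surface that binds antigen but cannot signal by itself. It is held together with a dimer of Cd79a and Cd79b, whose tails are phosphorylated by Src-family kinases such as Blk when antigen binds. Co-receptors on the same surface raise or lower that signal, and the transcription factor Pax5 keeps the cell committed to the B lineage. Most B cells reside in lymph nodes, spleen, blood and bone marrow, and healthy muscle fibres themselves do not express these genes.

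Values are FPKM, that is fragments scaled to transcript length and to library size, so that levels of different genes may be compared per length. The summed FPKM of a library was between 499509 and 691621 in 11 libraries. In replicate 3 of the chow-fed KO mice it was 10656400, but without the largest gene of each library it was 484182, beside 476504 to 656456 in the others. Read depth is not given in the files, so a low FPKM has no counting interval here. Cryab was at least 412 FPKM in every library titled Flox and at most 1.75 in every library titled KO, and Hspb2 was at least 81.5 and at most 1.92 respectively. The genotype field of 6 samples conflicts with their titles, and both deleted genes followed the titles. Ckm, the muscle creatine kinase, was between 13276 and 25896 FPKM in all libraries. The skeletal actin gene Acta1 was listed at 0 in 2 libraries and the fast myosin gene Myh4 in all 12, so an exact 0 can be a failed estimate. Members below are therefore said to be listed at 0, and a mean with its SD is given only for genes without such an entry.

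All 8 members were high in the same 3 libraries and low in the other 9. The 3 libraries were replicate 2 of the chow-fed WT mice and replicates 1 and 3 of the chow-fed KO mice. They held between 85% (Pax5) and 99.1% (Cr2) of each member's FPKM summed over the 12 libraries. In each of the 8 genes the lowest of the 3 lay above the highest of the other 9. Among all 11945 genes with at least 1 FPKM in at least 3 libraries, 878 (7.35%) did so, and 79 (0.661%) had at least 80% of their sum in the 3 libraries. The 3 libraries were singled out by the members themselves, so these counts are a description and carry no test. In bulk muscle, fewer B cells and less RNA per B cell cannot be told apart.

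**Figure D1:**
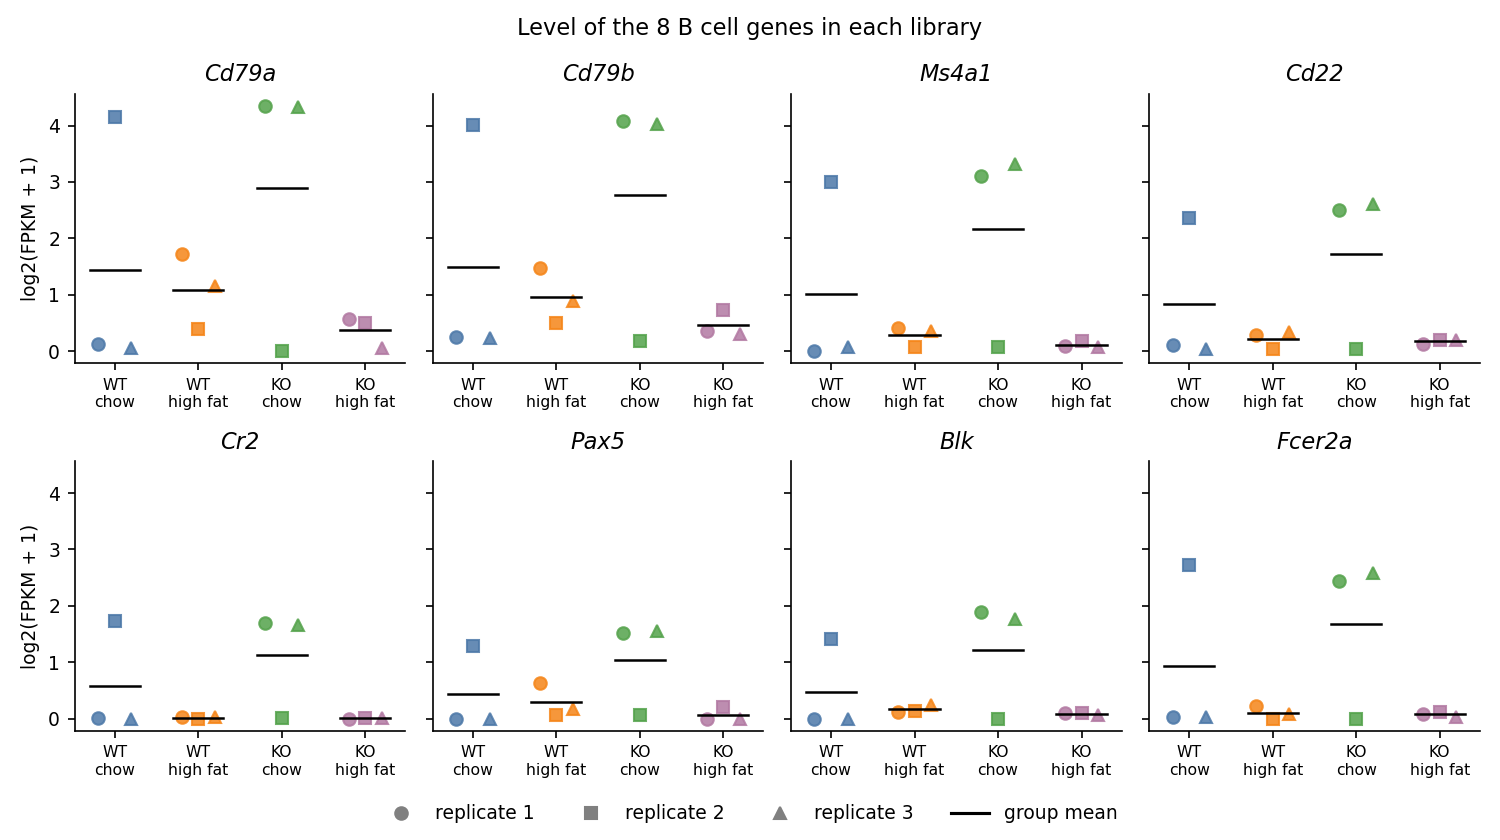
Level of each of the 8 B cell genes, as log2(FPKM + 1), in the 12 libraries by group, with a marker for each replicate and a line at the mean of the group's 3 values. In every panel 3 of the 6 chow libraries stand high and the other 9 libraries lie near the bottom, with Cd79a at up to 19.4 FPKM.

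The receptor's signalling dimer had the highest levels. Cd79a was at 0.0870, 16.8 and 0.0405 FPKM in replicates 1 to 3 of the chow-fed WT mice, at 2.30, 0.304 and 1.24 in fat-fed WT mice, at 19.4, 0 and 19.1 in chow-fed KO mice, and at 0.480, 0.405 and 0.0433 in fat-fed KO mice. Replicate 2 of the chow-fed WT mice thus stood with replicates 1 and 3 of the chow-fed KO mice, and each chow group also held the lowest value of its genotype. Cd79a occupies 24897381 to 24902197 of chromosome 7, plus strand (GRCm38, GENCODE M21), with 5 exons, and its end is 715 bp from the next gene, Arhgef1, whose median level was 15.8 FPKM. Cd79b, its partner, was at 0.185, 15.1 and 0.171 FPKM in chow-fed WT mice, at 1.76, 0.412 and 0.860 in fat-fed WT mice, at 15.9, 0.137 and 15.4 in chow-fed KO mice, and at 0.272, 0.660 and 0.229 in fat-fed KO mice. The same 3 libraries were high, and no library was listed at 0. Cd79b occupies 106311341 to 106314762 of chromosome 11, minus strand, 3830 bp from the muscle sodium channel gene Scn4a on the same strand, which had a median of 70.5 FPKM. Group means of Cd79b were 5.14 ± 8.59 FPKM (SD, n = 3) in chow-fed WT mice and 1.01 ± 0.688 in fat-fed WT mice. They were 10.5 ± 8.94 FPKM in chow-fed KO mice and 0.387 ± 0.238 in fat-fed KO mice, so that in both chow groups the SD was about as large as the mean or larger.

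In the 3 high libraries both chains of the dimer stayed close to each other, with Cd79a at 1.12, 1.22 and 1.24 times Cd79b in FPKM. Across all 12 libraries Cd79a was the higher of the pair in 6 and Cd79b in the other 6. Where both were low, Cd79b was the higher in 6 of 9 libraries, and its lowest value of 0.137 FPKM was the highest minimum of any member.

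Of the surface molecules, Ms4a1 encodes CD20, a membrane protein that B cells carry from the precursor stage until they become plasma cells. Ms4a1 was at 0, 6.97 and 0.0479 FPKM in chow-fed WT mice, at 0.323, 0.0505 and 0.280 in fat-fed WT mice, at 7.61, 0.0496 and 8.96 in chow-fed KO mice, and at 0.0672, 0.127 and 0.0518 in fat-fed KO mice. Cd22 is a sialic acid binding lectin that recruits the phosphatase Ptpn6 and so dampens the receptor's signal. It was at 0.0712, 4.16 and 0.0220 FPKM in chow-fed WT mice, at 0.221, 0.0234 and 0.269 in fat-fed WT mice, at 4.64, 0.0235 and 5.14 in chow-fed KO mice, and at 0.0958, 0.150 and 0.151 in fat-fed KO mice. Both genes had the 3 high chow libraries far above the rest, and within each diet the KO and WT ranges overlapped. The means of Cd22 were 1.42 ± 2.38 and 0.171 ± 0.130 FPKM (SD, n = 3) in chow-fed and fat-fed WT mice, and 3.27 ± 2.82 and 0.132 ± 0.0315 FPKM in the same order in KO mice. Ms4a1 lies on chromosome 19 from 11249675 to 11266241 and Cd22 on chromosome 7 from 30865402 to 30880342, both on the minus strand. An antisense gene overlaps each of them, 4930526L06Rik at Ms4a1 and Gm29439 at Cd22, and whether the counting used strand is not given in the sources used here. 4930526L06Rik was listed at 0 in every library.

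Cr2 and Fcer2a are receptors of mature B cells in follicles, and follicular dendritic cells carry them too. Cr2, the complement receptor that amplifies the signal, was at 0.00800, 2.31 and 0 FPKM in chow-fed WT mice, at 0.0153, 0 and 0.0132 in fat-fed WT mice, at 2.23, 0.00780 and 2.16 in chow-fed KO mice, and at 0, 0.00654 and 0.00774 in fat-fed KO mice. It was the most sharply divided of the 8, since no library outside the 3 exceeded 0.0153 FPKM. Fcer2a, which encodes the IgE receptor CD23, was at 0.0226, 5.58 and 0.0220 FPKM in chow-fed WT mice, at 0.165, 0 and 0.0566 in fat-fed WT mice, at 4.45, 0 and 5.0 in chow-fed KO mice, and at 0.0610, 0.0800 and 0.0240 in fat-fed KO mice. Unlike most members, Fcer2a was highest in the WT library of the 3, as was Cr2. Cr2 lies on chromosome 1 from 195136811 to 195176716 and Fcer2a on chromosome 8 from 3681737 to 3694175, both on the minus strand, and Fcer2a is 482 bp from Trappc5, a gene on the other strand with a median of 21.4 FPKM.

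Pax5 and Blk act inside the cell and had low levels throughout. Pax5, the factor that turns on Cd79a and shuts off genes of other lineages, was at 0, 1.45 and 0 FPKM in chow-fed WT mice, at 0.555, 0.0470 and 0.118 in fat-fed WT mice, at 1.85, 0.0460 and 1.92 in chow-fed KO mice, and at 0, 0.158 and 0 in fat-fed KO mice. Replicate 1 of the fat-fed WT mice came nearest to the 3 high libraries, and 4 libraries were listed at 0. Blk, the Src-family kinase at the receptor, was at 0, 1.66 and 0 FPKM in chow-fed WT mice, at 0.0785, 0.0987 and 0.186 in fat-fed WT mice, at 2.70, 0 and 2.42 in chow-fed KO mice, and at 0.0668, 0.0671 and 0.0387 in fat-fed KO mice. Outside the 3 libraries the 3 WT libraries on high fat diet were the highest for Blk, and all 3 lay above the KO libraries on that diet. Pax5 lies on chromosome 4 from 44524757 to 44710487 and Blk on chromosome 14 from 63372836 to 63417037, both on the minus strand, and the annotation places the antisense gene Gm12462 within Pax5.

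By mean FPKM over the 12 libraries, with a listed 0 counted as 0, the order was Cd79a (5.02), Cd79b (4.25), Ms4a1 (2.04), Fcer2a (1.29), Cd22 (1.25), Blk (0.610), Cr2 (0.563) and Pax5 (0.512). Cd79b was above Ms4a1 in 12 of 12 libraries, Ms4a1 above Fcer2a in 11, and Cd22 above Blk in 11. The other neighbours were not separated in that way. Fcer2a was above Cd22 in only 2 of 12 libraries although its mean was higher, Blk was above Cr2 in 8, and Cr2 and Pax5 were each the higher in 5 libraries and equal in 2.

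The promoters of 3 members are shown because these genes were high in the same libraries and their windows hold motifs of B lineage factors. Each window runs from 250 bases before to 50 after the start site that RefSeq gives on GRCm38.p6, and capitals mark the motifs found. Cd79a is at chr7:24897247-24897546 on the plus strand, Cd22 at chr7:30878979-30879278 on the minus strand and Cr2 at chr1:195176670-195176969 on the minus strand, each written 5′ to 3′ on the strand of its gene.
Cd79a: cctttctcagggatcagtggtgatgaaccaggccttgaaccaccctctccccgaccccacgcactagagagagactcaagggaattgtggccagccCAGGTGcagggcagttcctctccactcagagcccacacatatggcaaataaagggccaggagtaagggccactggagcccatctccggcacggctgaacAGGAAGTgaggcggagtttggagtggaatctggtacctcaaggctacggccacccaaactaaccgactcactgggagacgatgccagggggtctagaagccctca
Cd22: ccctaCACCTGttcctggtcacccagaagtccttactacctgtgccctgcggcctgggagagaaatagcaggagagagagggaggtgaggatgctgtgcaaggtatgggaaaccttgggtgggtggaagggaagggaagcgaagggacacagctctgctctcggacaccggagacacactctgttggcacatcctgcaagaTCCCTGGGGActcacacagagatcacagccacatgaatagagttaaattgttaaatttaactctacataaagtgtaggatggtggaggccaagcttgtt
Cr2: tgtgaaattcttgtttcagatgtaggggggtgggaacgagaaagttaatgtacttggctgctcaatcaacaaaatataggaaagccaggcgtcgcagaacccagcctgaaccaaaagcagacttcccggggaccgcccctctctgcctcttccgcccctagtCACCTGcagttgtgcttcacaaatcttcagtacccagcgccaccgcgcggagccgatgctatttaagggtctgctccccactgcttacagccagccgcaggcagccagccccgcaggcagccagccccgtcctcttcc
RefSeq windows were at hand for 5 of the 8 genes, 7 windows in all, and those of Cd79b, Ms4a1 and Blk were not used here. Motifs were searched on both strands by their letters, those of EBF1 and kappaB being named only. The E-box CAGGTG, bound by E2A, was found in Cd79a, Cd22, Cr2 and Fcer2a, and 20.2% of all 32851 promoter windows held it. In Cd79a it begins 154 bases before the start site, and there the ETS element AGGAAGT, held by 9.35% of all windows, begins 55 bases before it. Cd22 held the palindromic motif of EBF1, in capitals, 49 bases before its start site, and 0.904% of all windows held that motif. Start sites differ between RefSeq and GENCODE. The GENCODE span of Cd79a begins within its window, and that of Cd22 takes in its whole window. Distances here are from the RefSeq site. The octamer ATGCAAAT (1.74% of all windows) and the kappaB element (0.155%) were found in none of the 7 windows, which says only that these letters are absent there. None of these motifs overlapped another in the windows shown, and a match is a description of the letters.

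The make-up of the 8-gene sum was alike in the 3 high libraries and different where the sum was low. The members summed to 0.374, 54 and 0.303 FPKM in chow-fed WT mice, 5.42, 0.936 and 3.02 in fat-fed WT mice, 58.8, 0.264 and 60.03 in chow-fed KO mice, and 1.04, 1.65 and 0.545 in fat-fed KO mice. Next to the 3 high libraries, replicates 1 and 3 of the fat-fed WT mice had the largest sums, far below theirs. Ms4a1 was at 0.414, 0.391 and 0.470 times Cd79a in the 3 high libraries, against 0.140 and 0.227 times in those replicates of the fat-fed WT mice. Fcer2a was at 0.332, 0.229 and 0.262 times Cd79a in the 3 high libraries and at 0.0716 and 0.0459 times in those of the high fat diet. Pax5, by contrast, was at 0.208, 0.243 and 0.214 times Ms4a1 in the 3 high libraries and at 1.72 and 0.422 times in those of the high fat diet. The WT libraries with intermediate sums were thus poorer in Fcer2a and Ms4a1 for their Cd79a, and had more Pax5 for their Ms4a1. Since Ms4a1 was itself low for Cd79a there, the ratio of Pax5 to Ms4a1 does not show that Pax5 was high for Cd79a. Outside the 3 high libraries these ratios rest on values of Ms4a1, Fcer2a and Pax5 under 1 FPKM, and no test was made. In the libraries with smaller sums Cd79a was under 1 FPKM too.

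**Figure D2:**
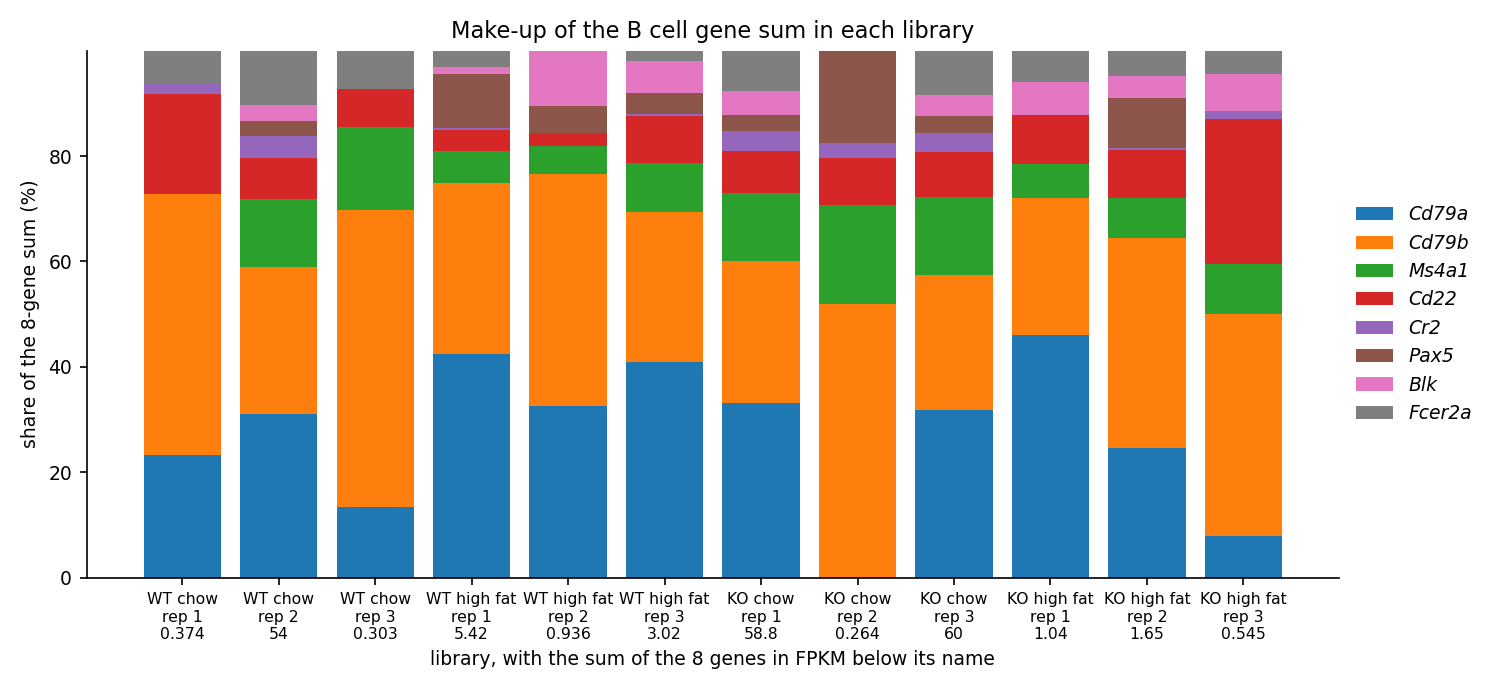
Share of each member in the 8-gene FPKM sum, in percent, for each of the 12 libraries, with the sum in FPKM under each bar. The 3 libraries with sums of 54, 58.8 and 60.03 FPKM have much the same shares, while the libraries with small sums vary.

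Over the 12 libraries the members' log2(FPKM + 1) values correlated with each other at Pearson's r from 0.955 to 0.999. Without the 3 high libraries the same correlations went from 0.327 to 0.957, with a median of 0.742 over 9 libraries. Both are descriptions, since the points share libraries and the first is set by the 3 high ones. Genes most like the members over 12 libraries, by correlation with their mean scaled profile, included Pou2af1 (r = 0.997), Faim3 (0.997), Itgal (0.997), Spn (0.996), Spib (0.996), Rasal3 (0.995), Rltpr (0.995), Siglecg (0.995) and Ccl19 (0.994). Among 11937 other genes, 162 had an r of at least 0.95.

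Genes of the receptor's wider machinery were followed as lists drawn up with earlier results known. Of 16 other surface and co-receptor genes, 11 had the lowest of the 3 high libraries above the highest of the other 9. The exceptions included Cd24a, Cd81 and Cd200, the highest genes of that list, all of which other cell types express. Of 14 signal transducers, 12 did so, among them Lyn at 7.05 to 7.61 FPKM against 4.17 to 5.88, Syk at 4.61 to 6.10 against 1.27 to 3.21, and Ptpn6, the phosphatase that Cd22 recruits, at 9.67 to 11.9 against 0.995 to 3.69. Bcl10, the highest of them, did not, with 10.01 to 10.5 against 9.23 to 11.9 FPKM. Of 12 transcription regulators 10 did so, with Tcf3, which encodes E2A, at 10.3 to 11.8 against 7.70 to 10.1 FPKM, Ebf1 at 5.01 to 6.23 against 2.18 to 4.95, and Pou2af1, a coactivator, at 6.30 to 10.1 against 0.0236 to 0.582. Bcl6 and Foxo1 did not. All 13 listed genes for survival and homing did so, among them the follicle chemokine Cxcl13 at 14.3 to 19.1 FPKM against 0.306 to 3.17, with its receptor Cxcr5 at 1.91 to 2.20 against 0.0197 to 0.135. Ltb was at 17.6 to 22.9 FPKM against 0.243 to 1.28, and Cxcr4 at 7.14 to 7.79 against 2.58 to 7.04. The sums of these lists were 366 to 403 against 296 to 391 FPKM for surface genes, 55.3 to 63.0 against 24.9 to 38.8 for signal transducers, 80.4 to 87.1 against 42.5 to 65.2 for regulators and 58.2 to 73.5 against 6.27 to 10.7 for survival and homing genes. These counts stand beside 7.35% of the genes with at least 1 FPKM in at least 3 libraries and, as above, carry no test. Only 9 of the regulators and 10 of the survival and homing genes reached that level, so these 2 counts include genes near 0.

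Markers of other cells moved with the members. All 8 T cell genes stood above in the 3 libraries, with sums of 38.4 to 43.9 FPKM against 0.324 to 2.36, and Lck, Cd3g and Cd3e were their highest genes. In the 3 high libraries the T cell sum was 0.711, 0.746 and 0.717 times the B cell sum. All 5 listed genes of lymph node stroma and homing did the same, at 54.8 to 92.1 FPKM against 2.14 to 4.47, and Glycam1, a ligand made by high endothelial venules, was at 11.9, 19.5 and 34.3 FPKM against at most 0.0895. Of 8 plasma cell genes 4 did so, with Igj, the immunoglobulin joining chain, at 19.9 to 46.8 FPKM against 0.246 to 2.90, while Xbp1 and Sdc1 did not. These counts too stand beside 7.35% of the genes with at least 1 FPKM in at least 3 libraries and carry no test. Only 3 of the stroma genes and 5 of the plasma cell genes reached that level. Cxcl13 was in the stroma list and in the survival and homing list, so it was counted in both. No gene of the macrophage (5 genes), neutrophil (5), erythroid (2), adipocyte (4), endothelial (3), keratinocyte (3) or muscle (6) lists did so. Muscle sums were 49791 to 64408 FPKM in the 3 libraries against 36414 to 81306. The 2 libraries with Acta1 listed at 0 had sums of 48697 (chow-fed WT replicate 1) and 36414 (fat-fed KO replicate 2). Every other library outside the 3 had a muscle sum of 65101 to 81306, above the 3 libraries. Tnnt3, at 9588 to 11990 against 12490 to 16793 FPKM, was the only muscle gene lower in the 3 without overlap. Adipocyte sums were 1582 to 3071 FPKM in the 3 libraries against 514 to 1980, ranges that overlap. Sums of the other lists also overlapped between the 3 libraries and the rest, at 44.5 to 68.4 against 10.9 to 95.4 FPKM for macrophage, 23.9 to 114 against 1.85 to 1014 for neutrophil, 2.33 to 5.28 against 3.21 to 19.97 for erythroid, 74.2 to 85.7 against 63.8 to 89.5 for endothelial and 0.804 to 1.13 against 1.003 to 8.41 for keratinocyte genes. None of the 7 immunoglobulin constant genes looked for was listed under the symbol used, so no level of them is given. The part of T cells, stroma or plasma cells in the members' levels was not tested.

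**Figure D3:**
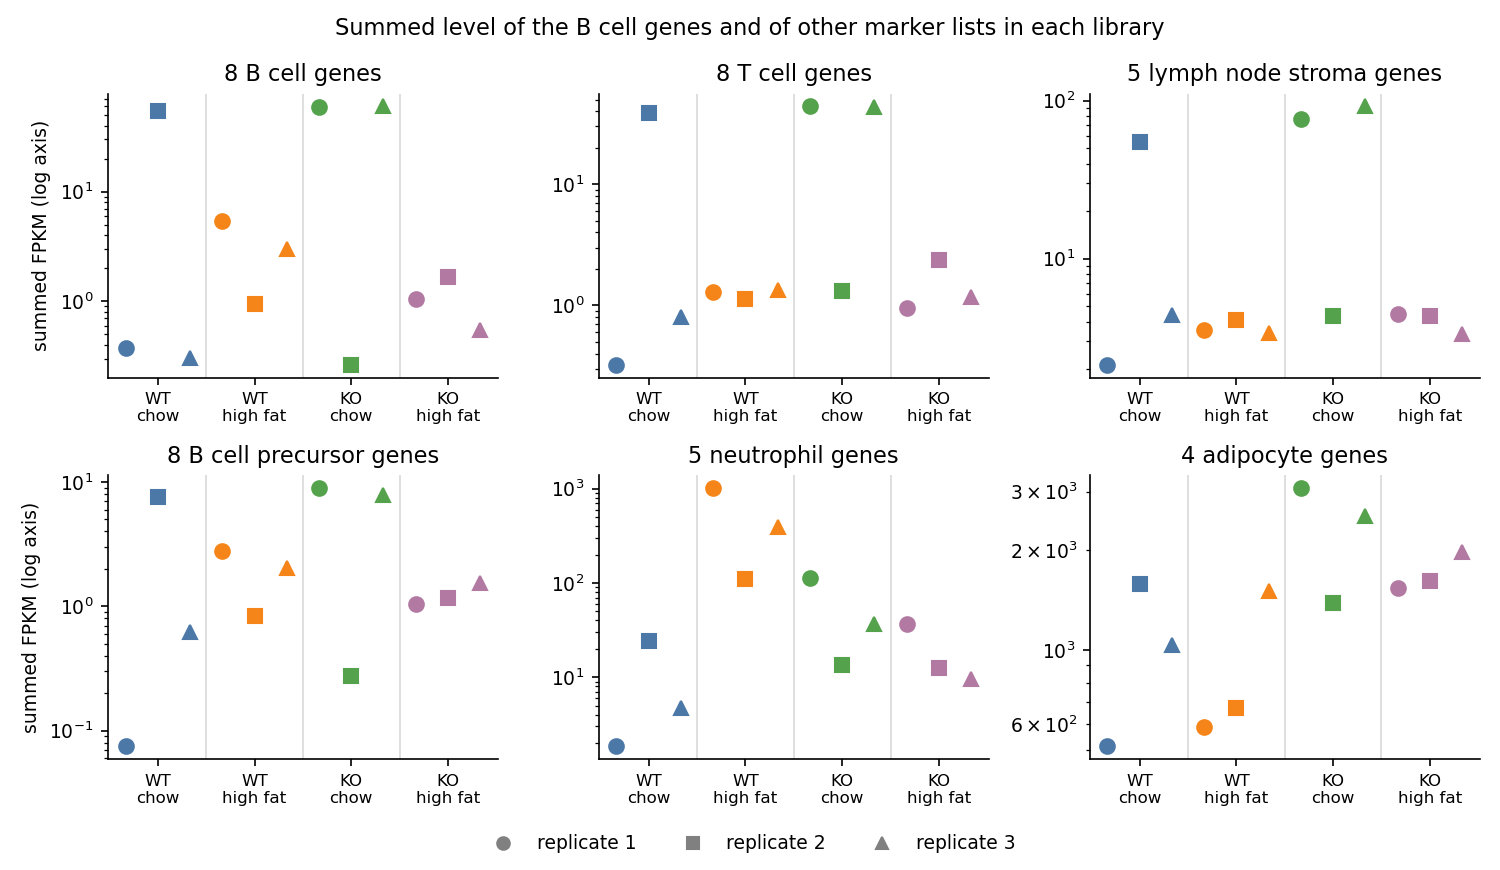
Summed FPKM, on log axes, of the 8 B cell genes, 8 T cell genes, 5 lymph node stroma and homing genes, 8 B cell precursor genes, 5 neutrophil genes and 4 adipocyte genes in each of the 12 libraries by group. The T cell and stroma panels show the same 3 libraries high as the B cell panel, while the neutrophil sum is highest in fat-fed WT mice, at 1014 FPKM in replicate 1. In the 3 libraries the precursor sum lies mostly in Il7r and Vpreb3.

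The 8 B cell precursor genes summed to 7.58 to 8.92 FPKM in the 3 libraries against 0.0747 to 2.77. Of them only Vpreb3 and Il7r stood above in the 3 libraries, beside 7.35% of all genes tested, and the sums there lay mostly in these 2 genes. Il7r, the highest of the list there, was at 3.88 to 5.03 FPKM against 0.0312 to 0.933. Vpreb3 was at 2.17 to 2.63 FPKM against 0 to 1.23. All 8 T cell genes were high in the same 3 libraries, and which cells held Il7r or Vpreb3 was not tested. The recombination genes Rag1 and Rag2 were at most 0.214 and 0.0435 FPKM in any library. Vpreb1 and Igll1, the surrogate light chain of precursors in the marrow, were highest in replicate 1 of the chow-fed KO mice, at 1.16 and 0.941 FPKM. In replicate 2 of the chow-fed WT mice, another of the 3 high libraries, they were at 0.412 and 0.556 FPKM. In replicate 3 of the chow-fed KO mice, the last of the 3, they were only at 0.0586 and 0.105 FPKM. They were also at 0.378 and 0.544 FPKM in replicate 1 and at 0.197 and 0.180 in replicate 3 of the fat-fed WT mice, the libraries with intermediate member sums. Neutrophil genes were highest in those same replicates, with sums of 1014 and 390 FPKM, S100a8 at 522 and 197, and Elane, an enzyme of immature granulocytes, at 4.05 and 3.20. The part of these cells in the members' levels there was not tested.

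The study asked how diet and the loss of αB-crystallin/HspB2 changed the muscle transcriptome, and the members were read in 7 comparisons. These were the diets compared within each genotype, the genotypes compared within each diet, the interaction, and each factor averaged over the other. None of the 8 members passed an adjusted p of 0.05 in any of them (limma on log2(FPKM + 1), Benjamini-Hochberg over 11945 genes). All 8 had passed the filter on low values only through the 3 high libraries, since no member reached 1 FPKM in 3 of the other 9. Differences are on the log2(FPKM + 1) scale, which understates the change of low genes. Within chow-fed WT mice the SD of the members' log2 values was 0.75 to 2.35, and 97.4% of all genes tested had an SD below the lowest of these. In chow-fed KO mice it was 0.85 to 2.51, and 98.6% of genes lay below. On high fat diet it was 0.012 to 0.67 in WT and 0.0060 to 0.27 in KO mice, against medians over all genes of 0.13 in each.

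In KO mice, all 8 members had lower means on high fat diet than on normal chow, by a median of -1.57 on the log2 scale, where the median over all genes tested was 0.03. None passed the adjusted threshold, nor did any other gene (0% of 11945 by that call). Cd79a differed by -2.52 (SE 1.23, 95% interval -5.22 to 0.18, adjusted p = 0.446, limma), the largest difference of the 8. Blk had the lowest adjusted p, at -1.14 (SE 0.48, interval -2.19 to -0.09, adjusted p = 0.437, limma). At an unadjusted p under 0.05, 5 members (Ms4a1, Cd22, Cr2, Pax5 and Blk) were lower, beside 4.73% of all genes. Those 5 share the same high libraries and are not independent of each other. Only for Cr2 did the groups not overlap, with 0.00780 FPKM as the lowest chow value and 0.00774 as the highest on high fat diet, and 6.14% of genes tested were lower without overlap. Replicate 2 of the chow-fed KO mice was at no more than 0.137 FPKM in every member. Without it the difference of Cd79a was -3.97 and the lowest adjusted p of a member was 0.0977 (limma). That library was singled out by the members' own low values, so a larger difference without it was set in advance and supports nothing. Without the 3 high libraries, which leaves 1 chow-fed KO mouse whose spread is taken from the other groups, the median over the members was 0.08 and 7 of 8 were higher on high fat diet, with 0 called.

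In WT mice the diet differences had 95% intervals that all included 0. They ran from -0.83 (Fcer2a, SE 0.75) to -0.14 (Pax5, SE 0.42), with a median of -0.55 and adjusted p from 0.850 to 0.960 (limma). The 95% interval of Cd79a was -3.05 to 2.34. None was called, beside 0.1% of all genes, and at an unadjusted p under 0.05 there were also 0, beside 8.12%. Every member's ranges overlapped, because chow-fed replicate 2 lay above the high fat libraries and replicates 1 and 3 below the highest of them, beside 13.1% of all genes whose groups did not overlap. In Cd79a, for example, the high fat libraries at 0.304 to 2.30 FPKM lay between chow values of 0.0870 and 16.8. Without replicate 2 of the chow-fed WT mice all 8 differences changed sign, to between 0.0079 (Cr2) and 1.00 (Cd79a), and again none was called. With all 3 high libraries left out these differences were the same, and 2 members (Cd79a and Cd79b) were higher at an unadjusted p under 0.05, beside 3.98% of all genes in that fit. The 3 libraries were chosen for the members' own high values, so that count supports nothing.

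**Figure D4:**
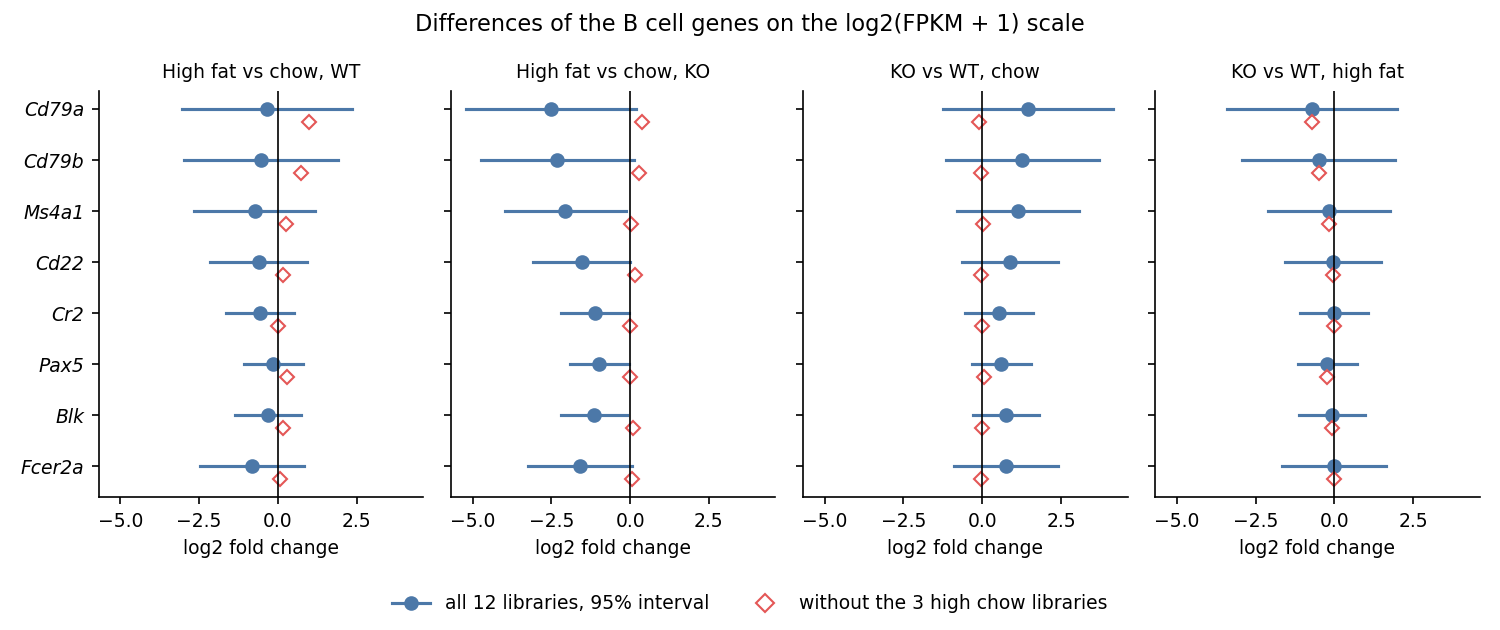
Difference of each member on the log2(FPKM + 1) scale in 4 comparisons, with filled points and 95% intervals (limma) for all 12 libraries and open diamonds for the 9 libraries left without the 3 high ones. With all libraries Cd79a is at -2.52 for diet in KO mice and 1.45 for genotype on normal chow, and without the 3 libraries it is at 0.37 and -0.09.

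On normal chow the members had higher means in KO than in WT mice, where 2 of 3 KO libraries and 1 of 3 WT libraries were high. This comparison shares the chow-fed KO mice with the diet comparison in KO mice and the chow-fed WT mice with that in WT mice. Differences ran from 0.54 (Cr2, SE 0.49) to 1.45 (Cd79a, SE 1.23), with a median of 0.82 and adjusted p from 0.401 (Blk) to 0.569 (Fcer2a) by limma. None was called, beside 0.0586% of all genes, and 0 had an unadjusted p under 0.05, beside 16.7%. All ranges overlapped, beside 18.4% of genes without overlap. Without replicate 2 of the chow-fed KO mice Cd79a differed by 2.90 and the lowest adjusted p, that of Blk, was 0.0842 (limma). As above, that library was singled out by its low members, so these values support nothing. Without the 3 high libraries the median was -0.02, and 3 of 8 members were higher in KO mice.

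On high fat diet the members' levels were low in both genotypes. The differences between KO and WT mice ran from -0.72 (Cd79a, SE 1.23) to -0.0068 (Cr2, SE 0.49), with a median of -0.12 and adjusted p from 0.845 to 0.998 (limma). None was called, beside 0.109% of all genes, and none had an unadjusted p under 0.05, beside 16.2%. Blk was the only member whose groups did not overlap, at 0.0387 to 0.0671 FPKM in KO and 0.0785 to 0.186 in WT mice, and 10.7% of all genes were lower in KO mice without overlap. None of the 3 high libraries is in these groups, but they enter the spread that the fit shares. Without them the differences stayed as they were, 1 member (Cd79a) was lower at an unadjusted p under 0.05, beside 5.95% of all genes in that fit, and the lowest adjusted p was 0.280.

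The interaction, the diet difference in KO mice less that in WT mice, ran from -2.17 (Cd79a, SE 1.73) to -0.55 (Cr2, SE 0.70), with adjusted p from 0.898 to 0.933 (limma). No member and no other gene was called (0%), and 0 members had an unadjusted p under 0.05, beside 6.25%. The diet differences in the 2 genotypes were therefore not shown to differ. Averaged over genotypes, the diet differences ran from -1.44 (Cd79a, SE 0.87) to -0.56 (Pax5, SE 0.30), with adjusted p from 0.338 to 0.440, none called beside 0.0586% of all genes. At an unadjusted p under 0.05, 3 members (Ms4a1, Cr2 and Fcer2a) were lower, beside 5.94% of all genes. Without the 3 high libraries all 8 averaged diet differences were above 0, with a median of 0.15. Averaged over diets, the genotype differences ran from 0.20 (Pax5, SE 0.30) to 0.49 (Ms4a1, SE 0.62), with adjusted p from 0.538 to 0.806, none called beside 0.862% of all genes and 0 at an unadjusted p under 0.05, beside 26.5%. Without the 3 libraries all 8 were below 0, with a median of -0.05.

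The lists closest to B cells likewise had no gene called, while the neutrophil and macrophage lists moved otherwise than the members. Of the 10 survival and homing genes that passed the filter, of 14 signal transducers, 9 transcription regulators, 16 surface genes, 5 plasma cell genes and 2 precursor genes, none was called in any of the 7 comparisons. In KO mice the median diet difference was -1.17 for the survival and homing genes, -0.80 for the surface genes, -0.52 for the regulators and -0.36 for the signal transducers, beside -1.57 for the members. The T cell genes had a median of -1.60 there and the 3 stroma genes that passed the filter -2.52, with none called. For diet in WT mice the 5 neutrophil genes had a median of 4.54, beside -0.55 for the members. For genotype on high fat diet the neutrophil median was -3.92 and that of the 5 macrophage genes 1.33, beside -0.12 for the members. None of these genes was called in those comparisons. Emr1, a macrophage gene, was the only gene of all lists that passed the test, being higher in KO mice averaged over diets (adjusted p = 0.0418, limma).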

How the data were processed

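RNA from the muscle of 12 mice was sequenced by the authors as paired-end reads on an Illumina HiSeq2000. Per the submitters' processing notes, TopHat2 2.0.8b, Cuffdiff 2.1.1 and the build mm10 were used, with no role or order given. The deposited values are FPKM, 1 value per gene row and library, with 23179 rows in each file and no pooling of replicates. Samples were grouped by title.

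Genes with at least 1 FPKM in at least 3 of 12 libraries (11945) were tested on log2(FPKM + 1) with limma 3.58.1 in R 4.3.3, using 4 group means, 8 residual degrees of freedom and an intensity trend, at a Benjamini-Hochberg adjusted p of 0.05. The steps were tested on simulated data. Alternatives were a pseudocount of 0.1, no filter, a replicate block, a fit of the compared groups alone, size factors, the genotype field in place of the title, and each library left out in turn. Leaving out 3 libraries together and unadjusted p-values were chosen after seeing the data.

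Named genes are the 8 members, Cryab and Hspb2, and, of each further list, its sum, its highest genes, its called genes and the partners of members, with the 10 genes most like the members, of which 1 is not reported here. Syk, Ebf1, Cxcr5, Vpreb1, Rag1, Rag2 and Elane, and the neighbouring genes Arhgef1, Scn4a and Trappc5, fall outside that rule and were named after their values were seen. The members and lists were chosen with earlier results of these data known. Positions are from GENCODE M21 on GRCm38, and promoters from RefSeq on GRCm38.p6. Sums, ratios and shares were made with Python 3.11.15 and pandas 2.3.3. Body weights, glucose and insulin were not analysed here.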

Additional observations from a re-analysis of the deposited data

How the results depend on the processing

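The count of members called was 0 in all 7 comparisons and stayed 0 under every alternative with an adjusted p, each library left out in turn (0 to 0) included. With unadjusted p-values it was 5 for diet in KO mice, 3 for diet averaged over genotypes and 0 in the others. Deviations of same-numbered libraries from their group means correlated at -0.81 to 0.39, with 2 of 12 pairs over 0.1. Deviations within a group of 3 sum to 0, so these values cannot decide whether the replicate numbers pair the mice. With the replicate block the count was also 0.

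Single members changed sign as follows, on the log2 scale. With a pseudocount of 0.1, diet in WT mice gave 0.51 for Cd79a and 0.15 for Pax5. Medians over the 8 members kept their sign there but moved in size. They went from -1.57 to -3.04 for diet in KO mice and from -0.88 to -2.49 for the interaction. With single libraries left out, diet in WT mice ran from -1.05 to 1.00 for Cd79a, -1.17 to 0.72 for Cd79b, -1.25 to 0.24 for Ms4a1, -1.01 to 0.16 for Cd22, -0.86 to 0.0079 for Cr2, -0.36 to 0.29 for Pax5, -0.54 to 0.16 for Blk and -1.28 to 0.068 for Fcer2a, the upper end always without chow replicate 2. Genotype on high fat diet ran from -0.14 to 0.018 for Cd22 (without WT high fat replicate 3) and -0.073 to 0.037 for Fcer2a (without WT high fat replicate 1).

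Without the 3 high chow libraries, in the order Cd79a, Cd79b, Ms4a1, Cd22, Cr2, Pax5, Blk and Fcer2a, diet in WT mice gave 1.00, 0.72, 0.24, 0.16, 0.0079, 0.29, 0.16 and 0.068. Diet averaged over genotypes gave 0.69, 0.50, 0.14, 0.15, 0.0017, 0.15, 0.12 and 0.072, and genotype averaged over diets -0.40, -0.27, -0.064, -0.037, -0.00065, -0.077, -0.042 and -0.027. Diet in KO mice gave 0.37 for Cd79a, 0.27 for Cd79b, 0.043 for Ms4a1, 0.15 for Cd22, 0.0055 for Pax5, 0.081 for Blk and 0.077 for Fcer2a. Genotype on normal chow gave -0.089 for Cd79a, -0.051 for Cd79b, -0.032 for Cd22 and -0.032 for Fcer2a, and the interaction 0.0089 for Fcer2a. That fit has 5 residual degrees of freedom, and the lone chow-fed KO mouse is assumed to vary like the other groups. Depth is not given in the files, so values near 0 have no counting error here.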
